A study of Mus musculus with 6 samples.

Results

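The genes described here encode the voltage-gated potassium channels and their subunits in mouse sinoatrial node (SAN) tissue. They were taken from the array by symbol: the Kcna to Kcnd, Kcnf to Kcnh, Kcnq, Kcns and Kcnv genes of the pore-forming subunits, the Kcnab, Kcnip and numbered Kcne genes of the accessory subunits, and antisense transcripts that carry such a symbol. This gave 49 of the 22180 genes that have a probe set of their own, on 53 probe sets. The array has 41345 probe sets, of which 25341 carry a gene symbol and were tested. Where a gene had several probe sets, the one with the highest mean signal was taken, and 47 of the genes are protein-coding while 2, Kcnq1ot1 and Kcnd3os, are long noncoding RNAs.

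SAN tissue was dissected from adult mice and measured on 6 arrays, 3 of HCN4FEA and 3 of wild-type (WT) mice. HCN4FEA is a global knockin line made by homologous recombination in embryonic stem cells, so every cell that expresses HCN4 carries the change. It has 3 substitutions in the HCN4 pacemaker channel, Y527F in the C-linker and R669E and T670A in the cyclic nucleotide-binding domain. By the paper, R669E and T670A abolish activation by cAMP. Y527F moves activation toward more positive potentials, into the range expected of WT channels at basal cAMP. WT mice carry none of these substitutions. Both genotypes came from in-house breeding on a mixed genetic background of C57BL/6 N and a further inbred strain. RNA came from the SAN of 3 mice of each genotype, as many as there are arrays, and the p-values describe the spread among these 6 arrays. In dissected tissue, fewer cells of a type and less RNA per cell cannot be told apart.

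Voltage-gated potassium channels open when the membrane depolarises and let potassium leave the cell, which ends the action potential and returns the membrane toward its resting or maximum diastolic potential. Each channel is an assembly of 4 pore-forming alpha subunits, and cytoplasmic beta subunits, calcium-binding KChIP proteins and single-span KCNE proteins alter its gating and its transport to the surface. In mouse heart the Kv4 and Kv1 subunits carry transient and sustained outward currents of early repolarisation, and ERG and KCNQ1 channels carry the rapid and slow delayed rectifier currents. In pacemaker cells the decay of delayed rectifier current after each beat is one of the events that allow the next diastolic depolarisation.

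All values below are log2 signals after RMA normalisation, and a difference of log2 signals is HCN4FEA minus WT. The values of a genotype follow the order of its arrays 1, 2 and 3. Signals of different probe sets are not comparable as amounts of RNA, because each set of probes binds with its own strength. The 1405 probe sets of olfactory and vomeronasal receptors, which are expected to be silent in heart, had a median of 1.21 and a 99th percentile of 2.42, and members below that percentile are described as near the background of the array. Array medians lay between 2.44 and 2.51 and pairs of arrays correlated at 0.98 to 0.99 across probe sets. All 12 pacemaker markers measured, among them Hcn4, Shox2, Tbx3 and Isl1, had means above the receptor percentile. Hcn4 itself, whose substitutions such probes cannot show, measured 6.51, 5.71 and 6.05 on the HCN4FEA arrays, against 5.04, 6.33 and 6.03 on the WT arrays, a difference of 0.29 (limma adjusted p = 0.924) with overlapping genotypes. The mice are labelled male, but Xist, the RNA of the inactive X chromosome, averaged 9.12 and lay between 8.97 and 9.43 on the 6 arrays, while the Y-linked Uty, Eif2s3y and Kdm5d averaged 1.29, 1.38 and 1.41. All 6 arrays go against that label in the same way, so none of them could be set aside for it.

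HCN4FEA 3 and WT 1, 1 array of each genotype, stood apart in neuron transcripts. The mean of the 16 neuron markers measured of 17 was 2.56, 2.29 and 5.0 on the HCN4FEA arrays 1, 2 and 3, against 4.36, 2.42 and 2.43 on the WT arrays 1, 2 and 3. These were the highest arrays for 12 of the 16 markers, and 3 markers, Elavl4, Chat and Nefm, had means below the receptor percentile. HCN4FEA 3 was also low in working atrial transcripts, with a mean of 8.73 over 9 of 10 markers, against 9.10 and 9.12 on HCN4FEA 1 and 2 and 9.16, 9.09 and 9.07 on the WT arrays, and it was the lowest array for 7 of the 9. For the 18 genes named by rule, results that rest on these arrays are given with and without them. Markers of other cell types differed between the genotypes at an unadjusted limma p of 0.05: 5 of 8 adipocyte markers were lower in HCN4FEA tissue, with list means of 3.84, 3.36 and 3.88 on the HCN4FEA arrays, against 4.47, 4.33 and 4.40 on the WT arrays, and 3 of 8 skeletal muscle and 3 of 7 macrophage markers were higher. Of the pacemaker, neuron, Schwann cell, smooth muscle and fibroblast markers 0 passed, and 1 of 9 working atrial and 1 of 6 endothelial markers were higher. The part of these cell types in the channel signals was not tested.

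Across the 49 genes no difference between the genotypes passed adjustment for multiple testing. Under an unadjusted limma p of 0.05, 3 genes differed: Kcns3 was higher in HCN4FEA tissue, and Kcna1 and Kcnh8 were lower. Of all probe sets tested, 6.1% passed the same threshold, 3.4% as higher and 2.71% as lower, so the share among the channel genes was close to the background. After Benjamini-Hochberg adjustment in limma 0 genes passed, the lowest adjusted p among them was 0.778, and 0% of all probe sets passed, with a lowest adjusted p of 0.724. The methods' t-test, which tests each probe set with its own spread, also gave 0 after adjustment. With the thresholds used in the study, an unadjusted p under 0.05 and a change of at least 1.5-fold, 0 of the 49 passed, against 1.13% of all probe sets.

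The fold changes centred on 0. Their median was -0.01 on the log2 scale, against 0.01 for all probe sets, with 22 genes above 0 and 27 below, and they ran from -0.38 for Kcnd2 to 0.54 for Kcnh7. In 5 genes the genotypes did not overlap, Kcng2 and Kcns3 with all HCN4FEA arrays higher and Kcna1, Kcna4 and Kcnh8 with all HCN4FEA arrays lower, while 11.2% of all probe sets showed such a separation. The methods' t-test gave 2 genes under an unadjusted p of 0.05, Kcna1 and Kcng2, against 4.03% of all probe sets. The 95% confidence interval of the fold change lay inside 1.5-fold in both directions for 30 of the 49 genes (61.2%), compared with 74.7% of all probe sets, and inside 2-fold for 46 (93.9%), compared with 96.2%. For those genes a larger change of the signal in either direction lay outside the interval, and for the rest these arrays could not show whether one was present. Of the 30 genes, 8 had a mean at or above the receptor percentile. The other 22 lay below it, where a narrow interval of the signal does not bound the change in RNA.

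**Figure D1:**
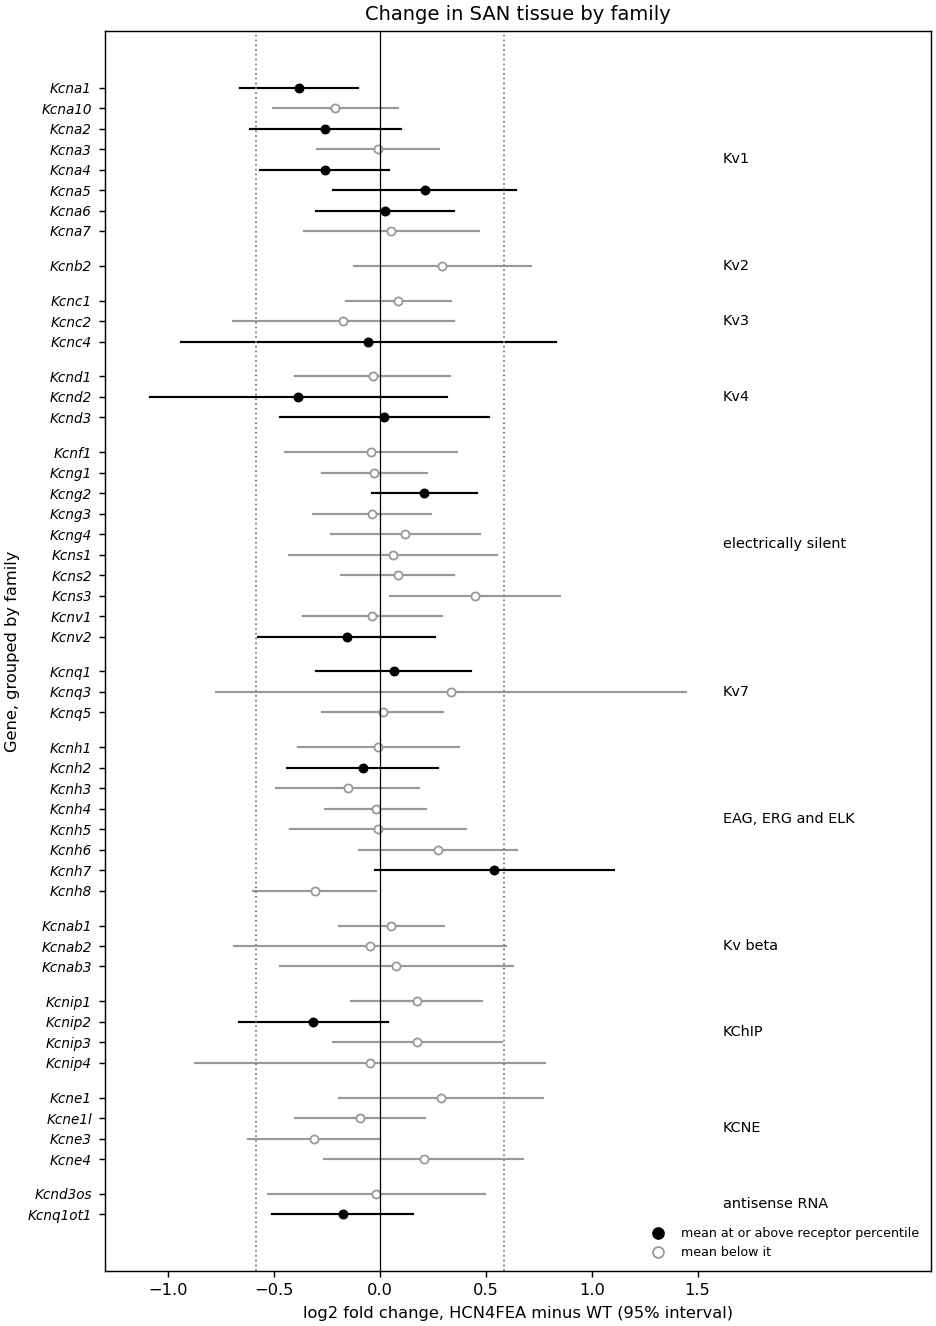
log2 fold change of each of the 49 genes, HCN4FEA minus WT, with its 95% confidence interval from limma, grouped by family; filled points have a mean at or above the receptor percentile, open points lie below it, and dotted lines mark a 1.5-fold change. The points run from -0.38 to 0.54, the intervals of Kcna1, Kcnh8 and Kcns3 leave out 0, and that of Kcnq3 is the widest.

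Of the 49 genes, 15 had a mean at or above the receptor percentile: Kcna1, Kcna2, Kcna4, Kcna5 and Kcna6, Kcnc4, Kcnd2 and Kcnd3, Kcng2 and Kcnv2, Kcnq1, Kcnh2 and Kcnh7, Kcnip2 and Kcnq1ot1. The other 34 were near the background, where an array signal follows the amount of RNA poorly. Of the 15, only Kcna1 passed an unadjusted limma p of 0.05, while 7.35% of all probe sets above the percentile did so. Their median fold change was -0.08, with 6 above 0 and 9 below, against 0.03 for all probe sets above the percentile.

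**Figure D2:**
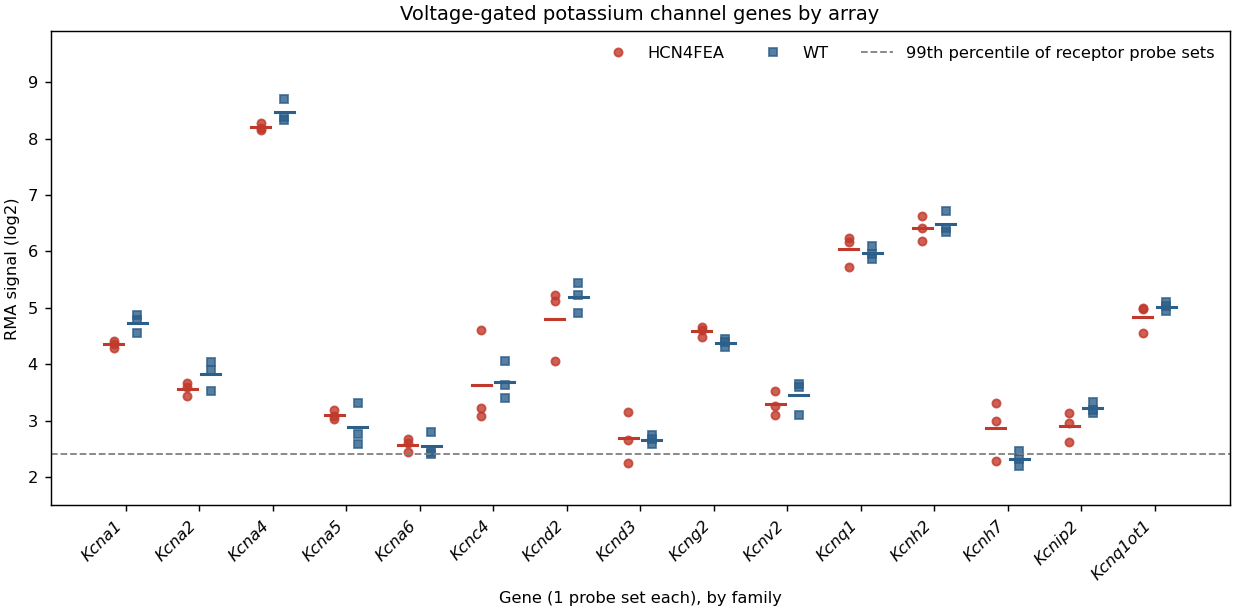
RMA signal (log2) of the 15 genes with a mean at or above the receptor percentile, 1 point per array, with HCN4FEA arrays as circles to the left of WT arrays as squares, a line at each mean of 3 arrays, and the dashed line at the receptor percentile of 2.42. Kcna1, Kcna4 and Kcng2 are the genes whose points do not overlap between the genotypes, and single arrays stand far from the other 2 of their genotype for Kcnd2 and Kcnc4.

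Among the 8 Kv1 (Shaker) genes, Kcna1 was lower in HCN4FEA tissue, and the others did not pass an unadjusted limma p of 0.05. Kcna1 encodes a low-threshold Kv1 alpha subunit best known from axons, whose human gene is mutated in episodic ataxia. It measured 4.28, 4.42 and 4.36 on the HCN4FEA arrays, against 4.78, 4.87 and 4.55 on the WT arrays. Every HCN4FEA array lay below every WT array. The difference was -0.38 (95% interval -0.66 to -0.10, limma adjusted p = 0.778), or 0.77 times the WT level. The exact two-sided permutation p was 0.1, the smallest that 3 arrays against 3 can give. Kcna1 stayed under an unadjusted limma p of 0.05 with any single array left out, where the difference ran from -0.47 to -0.32, but not without both HCN4FEA 3 and WT 1 (-0.36, adjusted p = 0.956).

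Kcna4, the Kv1 subunit of the slow transient outward current, measured 8.28, 8.19 and 8.16 on the HCN4FEA arrays, against 8.71, 8.32 and 8.38 on the WT arrays. The HCN4FEA arrays lay below the WT arrays without overlap, and WT 1 was the highest by a clear margin. The difference was -0.26 (95% interval -0.57 to 0.04, limma adjusted p = 0.859), and it was -0.14 without WT 1. A second Kcna4 probe set went the other way, with 4.59, 3.96 and 3.99 on the HCN4FEA arrays, against 3.84, 4.0 and 3.87 on the WT arrays, and a difference of 0.27. The probe sets of this gene therefore disagree in direction. Neither passed an unadjusted p of 0.05 in limma, while the first did so in limma with an intensity trend (adjusted p = 0.819).

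Kcna2, a Kv1 alpha subunit that often assembles with the Kcna1 product, measured 3.43, 3.60 and 3.67 on the HCN4FEA arrays, against 3.90, 3.53 and 4.04 on the WT arrays. WT 2 fell among the HCN4FEA arrays, so the genotypes overlapped. The difference was -0.26 (95% interval -0.61 to 0.10, limma adjusted p = 0.875), and without WT 2 it was -0.41, which passed an unadjusted p of 0.05 (adjusted p = 0.935). The Kcna2 difference was -0.15 without WT 3, which did not pass. Kcna5, the subunit of the ultrarapid sustained current, measured 3.08, 3.19 and 3.02 on the HCN4FEA arrays, against 2.59, 2.76 and 3.31 on the WT arrays. WT 3 was the highest of all 6 arrays and WT 1 and WT 2 the lowest. The difference was 0.21 (95% interval -0.22 to 0.64, limma adjusted p = 0.91), and without WT 3 it was 0.42, which passed an unadjusted p of 0.05 (adjusted p = 0.511). The Kcna5 difference fell to 0.06 without WT 1, which did not pass. The neighbouring Kcna5, Kcna1 and Kcna6 lie on chromosome 6 and Kcna3, Kcna2 and Kcna10 on chromosome 3, in each case with 0 other protein-coding genes between them in RefSeq. Within the chromosome 6 group Kcna1 was lower while Kcna5 and Kcna6 had differences of 0.21 and 0.02, and within the chromosome 3 group the differences were -0.01 for Kcna3, -0.26 for Kcna2 and -0.21 for Kcna10, none of which passed the threshold. Kcna3, Kcna6, Kcna7 (0.05) and Kcna10 lie outside the rule for named genes and were named after their values were seen, to complete the family. A second Kcna6 probe set gave -0.38, opposite in sign to the first, and did not pass the threshold.

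The fast transient outward channel of mouse myocytes is built from Kv4 alpha subunits and KChIP2, the product of Kcnip2. Kcnd2, which encodes an alpha subunit of that channel, measured 5.23, 5.13 and 4.06 on the HCN4FEA arrays, against 5.44, 4.91 and 5.23 on the WT arrays. HCN4FEA 3 lay far below the other 5 arrays, which overlapped. The difference was -0.38 (95% interval -1.09 to 0.32, limma adjusted p = 0.902), and without HCN4FEA 3 it was -0.01. Without both HCN4FEA 3 and WT 1 it was 0.11, so the size of this difference rested on 1 array and its sign turned without both.

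Kcnip2 measured 3.15, 2.96 and 2.62 on the HCN4FEA arrays, against 3.19, 3.34 and 3.14 on the WT arrays. HCN4FEA 3 was again the lowest, HCN4FEA 1 lay within the WT range and the genotypes overlapped. The difference was -0.31 (95% interval -0.67 to 0.04, limma adjusted p = 0.842). It was -0.17 without HCN4FEA 3 and -0.43 without HCN4FEA 1, the last of which passed an unadjusted p of 0.05 (adjusted p = 0.871). Kcnd3, the other main cardiac Kv4 subunit, measured 2.25, 3.15 and 2.67 on the HCN4FEA arrays, against 2.59, 2.74 and 2.68 on the WT arrays. The HCN4FEA arrays spanned the WT range on both sides, and the difference was 0.02 (95% interval -0.47 to 0.51). The third Kv4 gene, Kcnd1, was near the background with a difference of -0.04, and so were the other KChIP genes, with differences of 0.17 for Kcnip1, 0.18 for Kcnip3 and -0.05 for Kcnip4. Of the 3 Kv4 and 4 KChIP genes, 0 passed an unadjusted limma p of 0.05.

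The start-site regions of Kcnd2, Kcnip2 and Kcnc4 are shown because these genes, all above the receptor percentile, set HCN4FEA 3 apart in opposite directions, Kcnd2 and Kcnip2 with its signal lowest and Kcnc4, a Kv3 gene described further on, with its signal highest. Each is a RefSeq window of 300 bases (mouse assembly GRCm38.p6), from 250 bases before the annotated start to 50 after it, printed 5′ to 3′ on the strand of the gene. Capitals mark the GC box GGGCGG, found on either strand, which is the core of sites for Sp-family factors.
Kcnd2 (chr6:21215096-21215395, plus strand): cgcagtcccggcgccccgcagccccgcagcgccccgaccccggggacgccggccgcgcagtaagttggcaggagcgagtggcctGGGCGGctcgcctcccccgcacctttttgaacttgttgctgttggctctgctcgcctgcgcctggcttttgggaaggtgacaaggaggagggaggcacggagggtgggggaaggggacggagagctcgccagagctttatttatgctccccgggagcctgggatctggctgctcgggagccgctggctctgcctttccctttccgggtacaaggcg
Kcnip2 (chr19:45816014-45816313, minus strand): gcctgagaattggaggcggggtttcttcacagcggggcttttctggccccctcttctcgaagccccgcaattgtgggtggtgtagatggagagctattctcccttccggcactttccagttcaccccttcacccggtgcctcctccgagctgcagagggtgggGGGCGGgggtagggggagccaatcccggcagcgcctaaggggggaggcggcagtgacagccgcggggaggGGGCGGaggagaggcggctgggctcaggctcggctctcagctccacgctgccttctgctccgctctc
Kcnc4 (chr3:107458849-107459148, minus strand): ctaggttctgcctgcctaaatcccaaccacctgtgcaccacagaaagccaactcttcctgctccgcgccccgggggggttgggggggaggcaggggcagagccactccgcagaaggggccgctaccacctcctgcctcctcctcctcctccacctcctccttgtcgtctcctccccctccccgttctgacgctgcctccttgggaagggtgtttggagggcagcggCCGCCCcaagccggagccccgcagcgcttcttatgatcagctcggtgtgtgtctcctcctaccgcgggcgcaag

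The windows of Kcnd2 and Kcnc4 held 1 GC box each and that of Kcnip2 held 2, and their GC content was 68.7%, 66.7% and 67.0%. Windows were given for 36 of the 49 genes, 51 windows in all because some genes have several starts. Over these, GGGCGG stood on either strand in 26 windows (51%), compared with 35.7% of the 32851 windows of all genes. The letters TATAAA stood at any position of the window in 1 (1.96%), compared with 13.6%. Such a match need not be a TATA box. Only 1.53% of windows held TATAAA in the short stretch before the start where that box lies. Whether the channel genes differ in that share was not tested. The T-box half-site AGGTGT, letters bound by factors such as Tbx3 and Tbx5, stood in 3 windows (5.88%), compared with 13.7%. None of these motifs contains another. The median GC content was 60.3% for windows of the channel genes and 52.7% for all windows. These matches describe letters in the windows and say nothing of binding in SAN tissue.

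For the delayed rectifier genes no difference between the genotypes exceeded the spread between arrays. Kcnh2, the ERG alpha subunit of the rapid delayed rectifier, measured 6.62, 6.42 and 6.18 on the HCN4FEA arrays, against 6.34, 6.42 and 6.71 on the WT arrays. The genotypes overlapped over most of their range, and the difference was -0.08 (95% interval -0.44 to 0.28, limma adjusted p = 0.959). Kcnq1, the alpha subunit of the slow delayed rectifier, measured 6.24, 6.16 and 5.72 on the HCN4FEA arrays, against 6.09, 5.96 and 5.87 on the WT arrays. HCN4FEA 3 was the lowest and the other HCN4FEA arrays the highest, and the difference was 0.07 (95% interval -0.30 to 0.43, limma adjusted p = 0.97). Both intervals lay inside 1.5-fold in each direction. The sign of the Kcnh2 difference turned to 0.03 without HCN4FEA 3 or without WT 3, and that of Kcnq1 turned to -0.03 without HCN4FEA 1.

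Kcnq1ot1, the noncoding RNA that is transcribed from the opposite strand of an intron of Kcnq1 on the paternal chromosome, measured 4.98, 5.0 and 4.56 on the HCN4FEA arrays, against 5.03, 5.10 and 4.94 on the WT arrays. The genotypes overlapped, and HCN4FEA 3 was the lowest for this RNA as it was for Kcnq1. The difference was -0.18 (95% interval -0.51 to 0.16, limma adjusted p = 0.904), and without HCN4FEA 3 it was -0.03. Whether the probes of Kcnq1 and Kcnq1ot1 keep the strands apart was not tested. Kcnd3os, the RNA antisense to Kcnd3, was near the background with a difference of -0.02. The other Kv7 genes analysed were near the background too, with differences of 0.33 for Kcnq3 and 0.01 for Kcnq5. The Kcnq3 difference rested on HCN4FEA 3, at 2.94, while HCN4FEA 1 and 2, at 1.33 and 1.06, lay below the WT mean of 1.44.

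Of the KCNE genes, the 4 analysed were all near the background. Kcne1, whose product assembles with KCNQ1 to form the slow delayed rectifier, measured 2.95, 2.33 and 2.09 on the HCN4FEA arrays, against 2.12, 2.17 and 2.22 on the WT arrays. HCN4FEA 1 alone lay above the percentile, and HCN4FEA 3 was the lowest array. The difference was 0.29 (95% interval -0.19 to 0.77, limma adjusted p = 0.889), 0.04 without HCN4FEA 1 and 0.47 without HCN4FEA 3, the last of which passed an unadjusted p of 0.05 (adjusted p = 0.921). Kcne3, Kcne4 and Kcne1l had differences of -0.31, 0.21 and -0.09, and none of them passed an unadjusted limma p of 0.05 with all arrays. Kcne3 passed it as lower without HCN4FEA 1 or without WT 1, and Kcne4 as higher without WT 1, alone or together with HCN4FEA 3.

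Among the 8 genes of the EAG, ERG and ELK families, Kcnh8 was lower in HCN4FEA tissue at an unadjusted limma p of 0.05 and 0 were higher. Kcnh8, an ELK channel of neurons, measured 1.68, 1.65 and 1.92 on the HCN4FEA arrays, against 1.98, 1.98 and 2.21 on the WT arrays. The genotypes did not overlap, but all 6 values lay below the receptor percentile. The difference was -0.31 (95% interval -0.60 to -0.02, limma adjusted p = 0.811), and it passed the threshold in 2 of the 6 fits with 1 array left out. It no longer passed without HCN4FEA 1 (-0.27), HCN4FEA 2 (-0.26), WT 2 (-0.34) or WT 3 (-0.23). With all 6 arrays it did not pass in the methods' t-test, in limma with an intensity trend or with all probe sets in the fit.

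Kcnh7, an ERG channel gene expressed in the nervous system, had the largest positive difference among the 49. It measured 2.99, 3.32 and 2.29 on the HCN4FEA arrays, against 2.47, 2.32 and 2.19 on the WT arrays. HCN4FEA 1 and 2 were above the receptor percentile and above all WT arrays, while HCN4FEA 3 lay within the WT range. The WT mean of 2.33 was itself below the percentile, although WT 1 lay just above it. The difference was 0.54 (95% interval -0.02 to 1.10, limma adjusted p = 0.823). Without HCN4FEA 3 it was 0.83 (adjusted p = 0.878), and without both HCN4FEA 3 and WT 1 it was 0.90 (adjusted p = 0.956), both past an unadjusted p of 0.05. The Kcnh7 difference was 0.31 without HCN4FEA 2, which did not pass. HCN4FEA 3 had the highest neuron marker mean of all 6 arrays and the lowest Kcnh7 signal of its genotype. WT 1, the next highest in neuron marker mean, had the highest Kcnh7 signal of its genotype. The part of neuron RNA in the Kcnh7 signal was not tested. The other genes of these families, Kcnh1, Kcnh3, Kcnh4, Kcnh5 and Kcnh6, were near the background with differences from -0.15 to 0.27, and were named after their values were seen.

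Electrically silent subunits form no channel alone and change the gating of Kv2 channels when they join them. Of these 10 genes, Kcns3 was higher in HCN4FEA tissue at an unadjusted limma p of 0.05 and 0 were lower. Kcns3 measured 2.19, 2.07 and 2.64 on the HCN4FEA arrays, against 1.78, 2.05 and 1.71 on the WT arrays. The genotypes did not overlap, but HCN4FEA 2 exceeded WT 2 only narrowly, and HCN4FEA 3 was the only array above the receptor percentile. The difference was 0.45 (95% interval 0.05 to 0.85, limma adjusted p = 0.804), with the WT mean of 1.85 near the background. It did not pass the threshold in the methods' t-test with all arrays, nor in limma without HCN4FEA 3 (0.28), WT 1 (0.42), WT 3 (0.38) or both HCN4FEA 3 and WT 1 (0.25).

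Kcng2 measured 4.66, 4.62 and 4.49 on the HCN4FEA arrays, against 4.39, 4.44 and 4.30 on the WT arrays. Every HCN4FEA array lay above every WT array, by a small margin. The difference was 0.21 (95% interval -0.04 to 0.46, limma adjusted p = 0.864), and it passed an unadjusted p of 0.05 in the methods' t-test but not in limma. The difference ran from 0.17 to 0.26 with single arrays left out. Kcnv2 measured 3.52, 3.26 and 3.11 on the HCN4FEA arrays, against 3.65, 3.10 and 3.61 on the WT arrays. The genotypes overlapped, and the difference was -0.16 (95% interval -0.57 to 0.26, limma adjusted p = 0.922). The Kcnv2 difference was -0.06 without HCN4FEA 3, -0.06 without WT 1 and 0.03 without both. The other 7 silent genes were near the background, with differences from -0.04 to 0.12. Kcnb2, of the Kv2 family, was near the background as well, with a difference of 0.29 (limma adjusted p = 0.876).

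Kcnc4, a fast-inactivating Kv3 alpha subunit, measured 3.09, 3.22 and 4.60 on the HCN4FEA arrays, against 4.05, 3.63 and 3.40 on the WT arrays. HCN4FEA 3 was the highest array and WT 1 the next, and the other HCN4FEA arrays were the lowest. The difference was -0.05 with a wide interval (95% interval -0.94 to 0.83, limma adjusted p = 0.993). Without HCN4FEA 3 it was -0.54, which passed an unadjusted p of 0.05 (adjusted p = 0.919), without WT 1 it was 0.13, and without both it was -0.36 (adjusted p = 0.956), which did not pass. The Kv3 genes Kcnc1 and Kcnc2 were near the background with differences of 0.09 and -0.17. The 3 Kv beta genes were also near it. Kcnab1, a beta subunit that speeds the inactivation of Kv1 channels, measured 1.61, 1.53 and 1.74 on the HCN4FEA arrays, against 1.60, 1.57 and 1.54 on the WT arrays. These values overlapped, with a difference of 0.05 (95% interval -0.19 to 0.30), and Kcnab2 and Kcnab3 had differences of -0.05 and 0.08.

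For 8 of the 49 genes (16.3%), namely Kcnc4, Kcnc2, Kcnq3, Kcnip1, Kcnip4, Kcnab2, Kcnh5 and Kcnv1, the highest arrays were HCN4FEA 3 and WT 1, compared with 6.91% of all probe sets. Among the 15 genes above the receptor percentile this held for Kcnc4 alone (6.67%), compared with 5.99% of all probe sets above it. These genes were picked out after their values were seen, and 7 of them were near the background in mean. Kcnq3, an alpha subunit of the neuronal M-current, measured 1.33, 1.06 and 2.94 on the HCN4FEA arrays, against 2.02, 1.26 and 1.05 on the WT arrays. Only HCN4FEA 3 lay above the receptor percentile for this gene. Kcnip4, a KChIP gene of brain, measured 2.15, 1.84 and 3.12 on the HCN4FEA arrays, against 2.97, 2.26 and 2.01 on the WT arrays. HCN4FEA 3 and WT 1 were the only arrays above the percentile. The same arrays had the highest neuron marker means, 5.0 and 4.36, and the part of neuron RNA in these channel signals was not tested.

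The opposite pattern, with HCN4FEA 3 lowest, was found for 6 of the 15 genes above the receptor percentile (40%), namely Kcna4, Kcnd2, Kcnip2, Kcnh2, Kcnq1 and Kcnq1ot1, compared with 18.1% of all probe sets above it. The margin was small for Kcna4 (8.16 on HCN4FEA 3, against 8.19 on HCN4FEA 2). HCN4FEA 1 was the lowest array for 4 of the same 15 (26.7%), compared with 11.9% of all probe sets above the percentile. Among all 49 genes HCN4FEA 3 was lowest for 12 (24.5%), compared with 17.4% of all probe sets, and highest for another 12, compared with 19.3%. HCN4FEA 3 was at the same time the lowest array for 7 of 9 working atrial markers, among them Gja5, the atrial gap junction gene, at 3.92 on HCN4FEA 3 against 5.10 and 4.79 on HCN4FEA 1 and 2 and 5.38, 4.91 and 5.25 on the WT arrays. The margin was small for Nppa (11.48 on HCN4FEA 3, against 11.54 on WT 2), Myl7 (10.97, against 11.01 on WT 3) and Myh6 (10.01, against 10.05 on WT 3). Sln was lowest on WT 3, and Nppb went the other way, with HCN4FEA 3 the highest array at 10.42. These atrial markers were named after their values were seen. The part of working atrial RNA in the signals of these 6 channel genes was not tested.

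**Figure D3:**
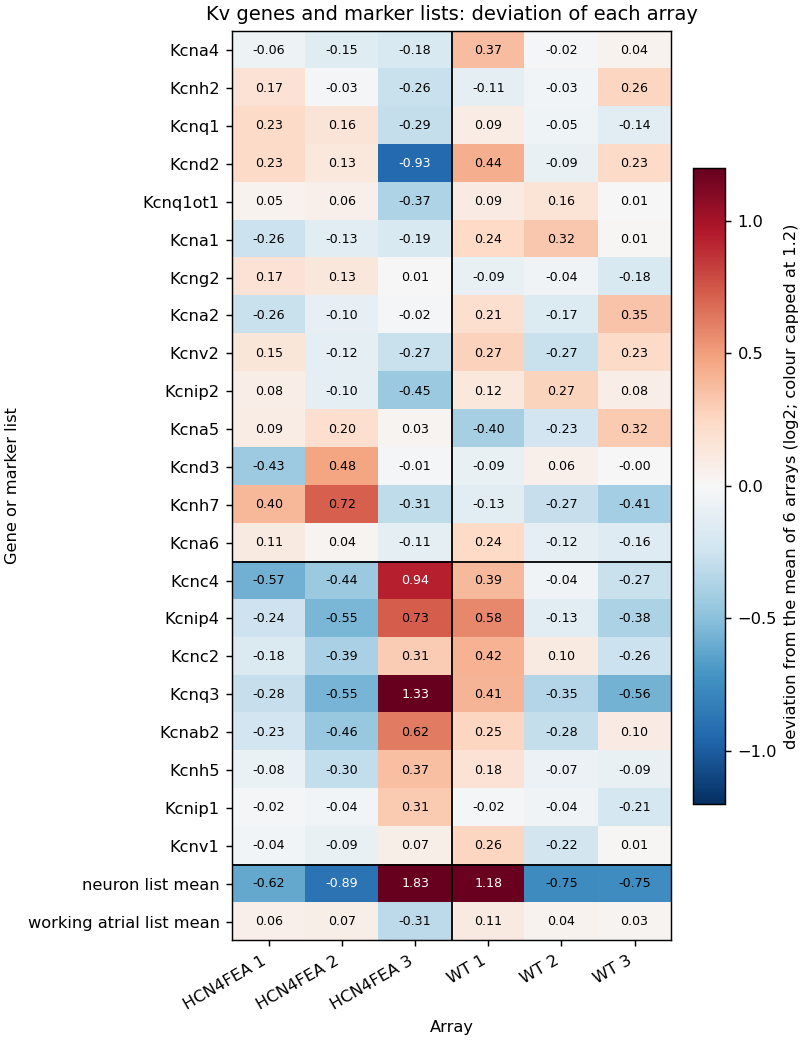
Deviation of each array from the mean of all 6 (log2) for 14 genes at or above the receptor percentile (top block), for the 8 genes whose highest arrays were HCN4FEA 3 and WT 1 (middle block), and for the means of the neuron and working atrial marker lists (bottom block), with HCN4FEA arrays left of WT arrays. In the HCN4FEA 3 column Kcnd2 and Kcnip2 are low along with the working atrial mean, while Kcnc4, Kcnq3 and Kcnip4 are high along with the neuron mean.

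Leaving out HCN4FEA 3 changed the set of genes under an unadjusted limma p of 0.05 the most: 5 genes then passed, Kcnh7 and Kcne1 as higher and Kcna1, Kcnc4 and Kcnh8 as lower, of which Kcnh7 alone also passed 1.5-fold. Of the 25341 probe sets tested, 1355 passed in that fit. With other single arrays left out, between 2 and 4 genes passed, and 1303 to 2034 of all probe sets did. Kcna1 was among the genes in every one of these fits. In none of them did a gene pass an adjusted p of 0.05.

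**Figure D4:**
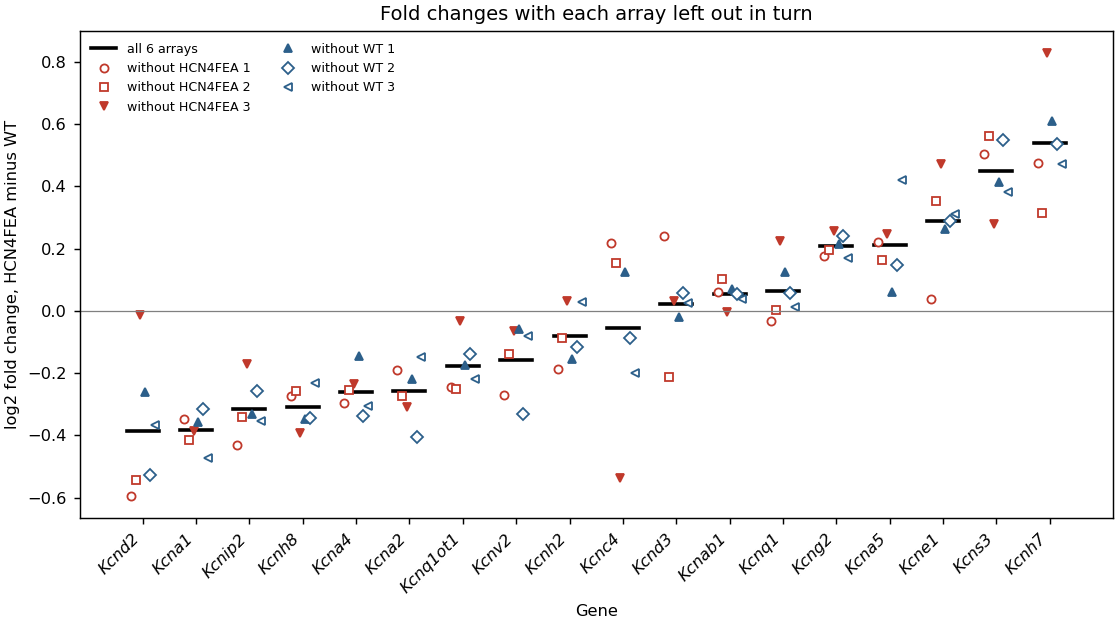
log2 fold change, HCN4FEA minus WT, of the 18 named genes with all 6 arrays (bars) and with each array left out in turn (symbols). Kcna1 stays between -0.47 and -0.32, Kcnd2 moves to -0.01, Kcnc4 to -0.54 and Kcnh7 to 0.83 when HCN4FEA 3 is left out.

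Genes whose proteins bind, traffic or modulate these channels were compared in the same way. Of 26 such genes 21 were measured, and their median difference was 0.01. At an unadjusted limma p of 0.05, 1 was higher in HCN4FEA tissue and 0 were lower, compared with 3.4% and 2.71% of all probe sets. That gene was Amigo1, which encodes an adhesion protein that accompanies Kv2 channels, at 5.06, 5.31 and 5.15 on the HCN4FEA arrays, against 4.85, 4.79 and 4.88 on the WT arrays. The genotypes did not overlap, as in 11.2% of all probe sets, and the difference was 0.33 (95% interval 0.07 to 0.59, limma adjusted p = 0.778). Differences of other genes of this list were -0.05 for Akap9, the anchoring protein of the KCNQ1 channel, -0.05 for Dlg1, a scaffold of Kv1 and Kv4 channels, -0.09 for Nedd4l, a ubiquitin ligase acting on KCNQ1 and ERG channels, and 0.03 for Cav3, the muscle caveolin. These were named after their values were seen.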

How the data were processed

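RNA of SAN tissue from HCN4FEA and WT mice, 3 arrays each, was labelled with the Affymetrix whole transcript sense kit and hybridised to whole-transcript mouse gene arrays. The authors ran RMA in Expression Console 1.0, whose quantile step removes any shift common to most genes, and tested the signals in Partek 6.5. The deposited log2 signals per probe set were used with no further scaling, and the number of arrays limits their precision. The methods name an earlier array version than the probe set annotation used, in which 23521 probe sets have 1 symbol, 1820 several and 16004 none. All 49 genes matched a RefSeq gene.

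HCN4FEA was compared with WT by limma 3.58.1 in R 4.3.3 (3.85 prior degrees of freedom, no replicate block). Benjamini-Hochberg adjustment covered 25341 probe sets, and the script was tested on simulated data. The unequal-variance test of the methods, at a p of 0.05 and a fold of 1.5, is called the methods' t-test. Alternatives were an intensity trend, all probe sets, a filter at the receptor percentile, median centring, repeated quantile normalisation, the mean of a gene's probe sets, a replicate block, and arrays left out. Named genes had an unadjusted p under 0.05, 1 of the 12 highest means or 1 of the 6 largest changes above the receptor percentile, or belonged to a cardiac set (11 measured), 18 genes in all, and members of families of 5 or fewer were named for completeness. Members, lists and rules were chosen with earlier results of these data known. Some genes are not reported here. Figures used Python 3.11.15 and matplotlib 3.10.9.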

Additional observations from a re-analysis of the deposited data

How the results depend on the processing

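No gene passed an adjusted p of 0.05 under any alternative, and in limma with all arrays the count past an unadjusted p of 0.05 was 3. With all arrays it was 2 in the methods' t-test (Kcna1 and Kcng2), 2 with all probe sets in the fit (Kcna1 and Kcns3) and 3 with an intensity trend, where Kcna4 passed and Kcnh8 did not. It was 1, Kcna1, when only probe sets at or above the receptor percentile were tested, and 2 to 5 with single arrays left out. Over all probe sets, 1547 of 25341 passed in the main fit, 1021 in the methods' t-test and 1535 with the intensity trend. With all probe sets in the fit 2445 of 41345 passed, with the receptor filter 885 of 12774, and with single arrays left out 1303 to 2034. The study's thresholds gave 0 genes with all arrays, 0 to 1 with single arrays left out, and 1 (Kcnh7) without both WT 1 and HCN4FEA 3. The labels give replicate numbers but no pairing. Deviations from the genotype means of arrays with the same number correlated at -0.05, 0.12 and -0.02. HCN4FEA 2 alone had the WT array of its own number as its best match. With 3 arrays of each genotype these values cannot show whether arrays were paired. A fit with the replicate block gave 3 genes under an unadjusted p of 0.05, Kcna1, Kcnh7 and Kcnh8, but not Kcns3. In that fit 1587 of 25341 probe sets passed. Over the 18 named genes 249 alternative values were computed, of which 211 kept their sign and side of the threshold, 10 came to pass it, 14 no longer passed it and 14 turned their sign. Some alternatives leave the fold change itself unchanged, so no sign could turn in them. These are the methods' t-test, the intensity trend, all probe sets, the receptor filter and the replicate block. Signs turned for Kcnd3 (-0.0025 with quantile normalisation repeated, -0.0093 without both arrays, -0.21 to 0.24 with single arrays left out), Kcna4 (0.0058 as the mean of its probe sets), Kcnd2 (0.11) and Kcnv2 (0.034) without both arrays, and, with single arrays left out, Kcnc4 (-0.54 to 0.22), Kcnq1 (-0.034 to 0.23), Kcnab1 (-0.0026 to 0.10) and Kcnh2 (-0.19 to 0.031). The cause of these changes was not tested. Signals near the background limit what can be seen for 34 of the 49 genes.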
